A study of Mus musculus with 4 samples.

Results

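The colony-stimulating factors and their receptors were followed in mouse bone marrow cultures on 4 one-colour microarrays. The 9 genes were Csf1, Il34, Csf2 and Csf3 among the ligands and Csf1r, Csf2ra, Csf2rb, Csf3r and Flt3 among the receptors. They were chosen by name, and were read by 15 of the 32994 probes that could be named, out of 22911 genes in all.

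Each of 4 groups had 1 array. LysM-St18flox osteoclasts and wild-type osteoclasts were macrophages that had received 50 ng/ml RANKL, the inducer of osteoclast formation, beside 25 ng/ml M-CSF during 3 added days. LysM-St18flox macrophages and wild-type macrophages were marrow cells after 4 days in 25 ng/ml M-CSF without RANKL. All 4 cultures therefore received M-CSF, the protein encoded by Csf1, and no culture without it was measured. RANKL and time in culture changed together between the cell types. LysM-St18flox by convention names a loxP-flanked St18 gene with Cre recombinase under the lysozyme M promoter, which acts in myeloid cells. The sources used here give neither number, age nor sex of the mice.

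Colony-stimulating factors are secreted proteins that keep myeloid cells alive and make them divide and mature. M-CSF and interleukin-34 share 1 receptor, the tyrosine kinase Csf1r, and osteoclast precursors need its signal together with RANKL. GM-CSF, from Csf2, acts through the specific alpha chain Csf2ra and the common beta chain Csf2rb, and G-CSF, from Csf3, acts through Csf3r, the receptor of the neutrophil lineage. Flt3 is a tyrosine kinase related to Csf1r and marks early blood progenitors and dendritic cell precursors.

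The 4 arrays lay on 1 slide and were scanned together. The share of spots well above background, as flagged by the scanner software, was 59.0% to 63.2%, and no spot was saturated. Values are log2 of the processed signal minus the array's 75th percentile, called normalised log2 signal below, and each probe is compared only with itself. No group had a second culture, so no difference has a replicate check and no test was made. From the scanner's own error estimate, the SD of a difference between 2 arrays was 0.20 (log2) for the typical probe and 0.34 for the least certain one. That SD leaves out the spread between cultures and mice. A gene counted as measured if either array of a comparison had it well above background, and as called if the arrays differed at least 2-fold. Where only 1 of the 2 was well above background, the difference is a bound. Fewer cells of a type and less RNA per cell cannot be told apart in such bulk samples.

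The labels were checked on marker lists. All 8 osteoclast markers were at least 2-fold higher in osteoclasts than in macrophages of the same genotype, with a median difference of 7.93 (log2) in LysM-St18flox and 5.87 for the wild type. Over all measured genes 10.9% and 5.7% were at least 2-fold higher in the same comparisons. In LysM-St18flox osteoclasts 6 of the 8 were at least 2-fold higher than in wild-type osteoclasts, against 3.81% of all measured genes. All 8 macrophage markers were well above background on all 4 arrays. Of 6 mast cell and basophil markers 1 to 3 an array were, and of 7 lymphocyte markers 2 to 3. St18 itself was at -1.52 in LysM-St18flox macrophages, 3.51-fold lower than the 0.29 of wild-type macrophages. It was at 1.12 in LysM-St18flox osteoclasts and 1.55 in wild-type osteoclasts, a 1.35-fold difference, and the sources used here do not place its probes relative to the floxed part.

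Il34 was at least 2-fold higher in osteoclasts than in macrophages of both genotypes, and Csf1 was higher in LysM-St18flox macrophages than in the 3 other cultures. The receptors Csf1r, Csf2ra, Csf2rb and Csf3r were well above background everywhere and were not called in any comparison by their brightest probes, whereas Csf2 and Csf3 were well above background nowhere. Between LysM-St18flox osteoclasts and LysM-St18flox macrophages, 2 of the 7 measured genes were called, Il34 as higher and Csf1 as lower, where 23.1% of all 15575 measured genes were called, 10.9% as higher and 12.2% as lower. Between wild-type osteoclasts and wild-type macrophages, 1 of 6 was called, Il34 as higher, against 13% of 14735 genes, 5.7% as higher and 7.32% as lower. Between LysM-St18flox and wild-type macrophages, 1 of 7 was called, Csf1 as higher, against 6.27% of 15164 genes, 3.3% as higher and 2.97% as lower. Between LysM-St18flox and wild-type osteoclasts, 0 of 7 were called, against 7.75% of 14611 genes, 3.81% as higher and 3.94% as lower. With 6 or 7 genes these counts lie near the background shares. Centring each array on its median in place of the 75th percentile shifts all differences by 0.25 (log2) between the genotypes' osteoclasts and by 0.17 between LysM-St18flox osteoclasts and macrophages, and differences under about that size have no settled sign.

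**Figure D1:**
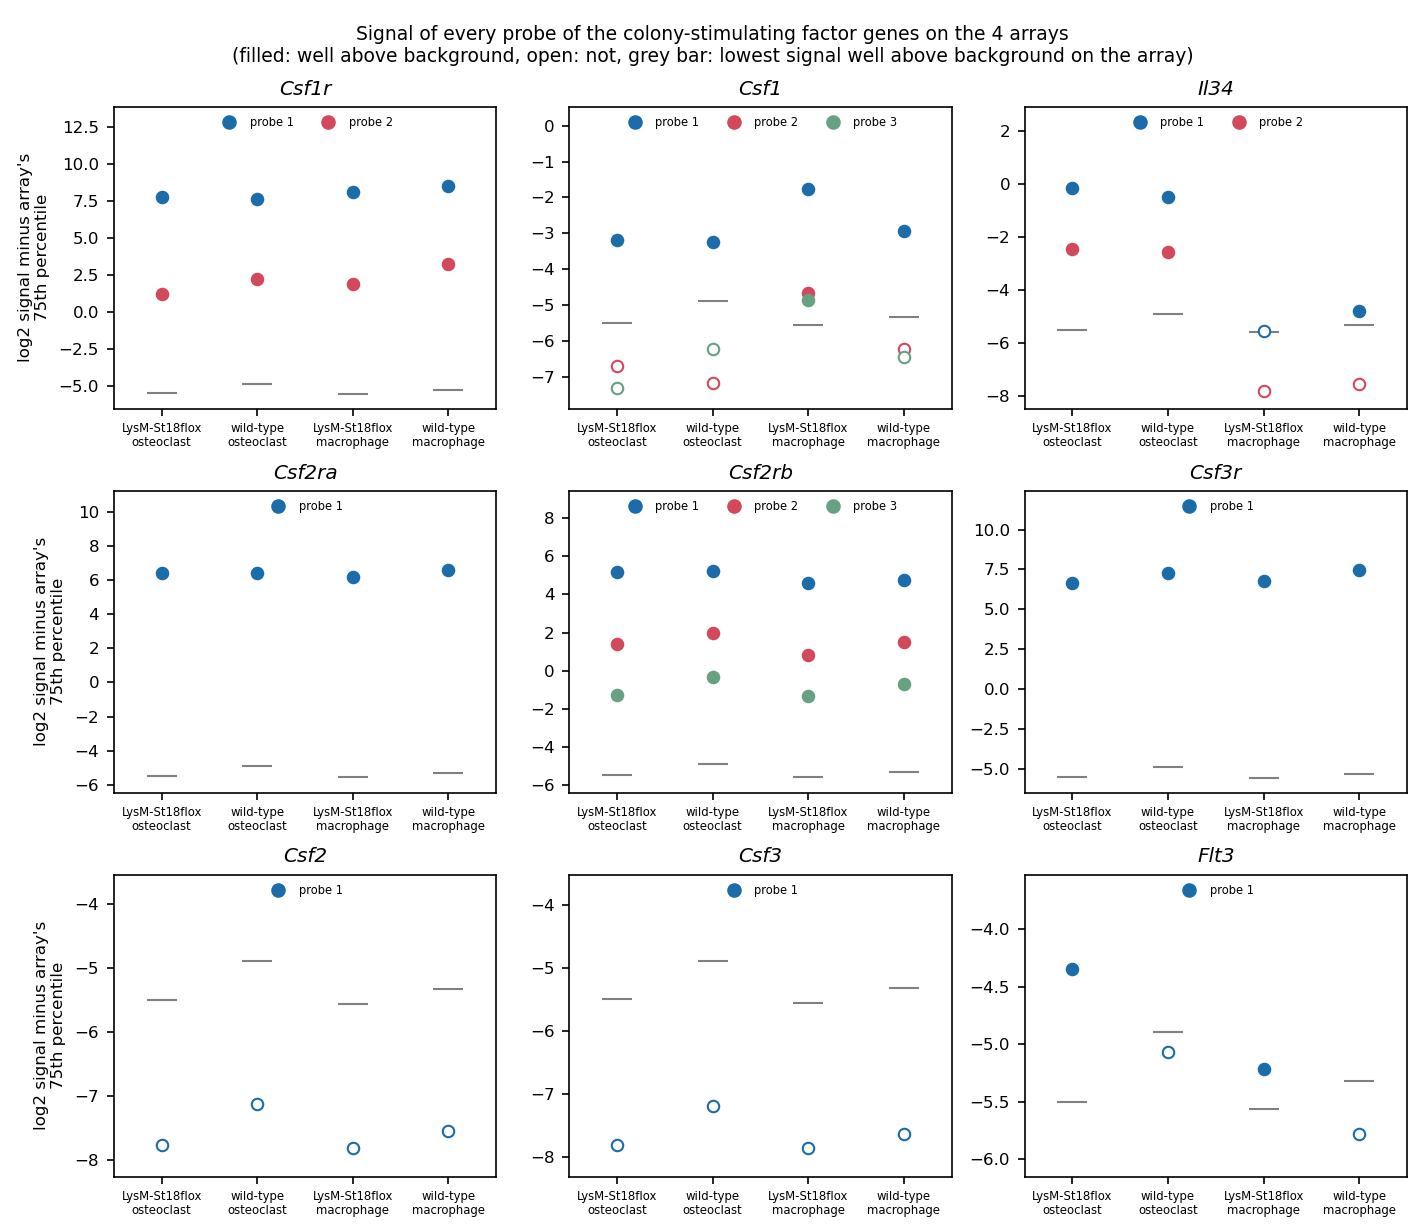
Normalised log2 signal (y axis) of every probe of the 9 genes on the 4 arrays (x axis), with 1 panel a gene and 1 colour a probe. Filled points were well above background, open points were not, and grey bars mark each array's lowest signal that was. Il34 is filled on both osteoclast arrays with both probes, and Csf2 and Csf3 are open on all 4 arrays.

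Promoters are shown for Csf1, the gene called in a comparison between genotypes, and for 3 receptor genes that stayed bright in all cultures. They are 250 bases before to 50 after the start site, from RefSeq on GRCm38.p6, and are written 5′ to 3′ along the gene. Csf1 lies at chr3:107760420-107760719 on the minus strand, Csf2ra at chr19:61228369-61228668 on the minus strand, Csf3r at chr4:126024409-126024708 on the plus strand, and Csf2rb2, a close relative of Csf2rb, at chr15:78305672-78305971 on the minus strand. Capitals mark matches on either strand to GAGGAAG, a core bound by PU.1, the myeloid transcription factor encoded by Spi1, or to AAGTT, the core bound by the family of zinc finger proteins to which St18 belongs.
Csf1: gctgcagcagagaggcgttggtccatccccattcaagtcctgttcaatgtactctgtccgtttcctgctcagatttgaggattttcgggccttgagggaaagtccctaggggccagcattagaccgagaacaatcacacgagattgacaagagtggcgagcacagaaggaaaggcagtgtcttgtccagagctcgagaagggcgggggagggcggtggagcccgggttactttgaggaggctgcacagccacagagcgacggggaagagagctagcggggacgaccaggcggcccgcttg
Csf2ra: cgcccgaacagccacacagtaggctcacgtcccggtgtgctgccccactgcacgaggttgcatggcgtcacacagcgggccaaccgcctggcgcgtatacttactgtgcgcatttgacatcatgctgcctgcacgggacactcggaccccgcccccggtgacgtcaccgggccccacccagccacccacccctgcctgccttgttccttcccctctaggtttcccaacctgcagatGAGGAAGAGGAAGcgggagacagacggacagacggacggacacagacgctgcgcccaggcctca
Csf3r: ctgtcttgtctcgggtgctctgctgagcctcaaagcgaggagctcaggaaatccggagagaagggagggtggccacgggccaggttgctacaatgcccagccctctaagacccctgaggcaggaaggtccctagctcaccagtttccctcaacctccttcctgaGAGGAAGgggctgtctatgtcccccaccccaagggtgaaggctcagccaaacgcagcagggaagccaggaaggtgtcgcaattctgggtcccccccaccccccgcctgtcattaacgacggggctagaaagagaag
Csf2rb2: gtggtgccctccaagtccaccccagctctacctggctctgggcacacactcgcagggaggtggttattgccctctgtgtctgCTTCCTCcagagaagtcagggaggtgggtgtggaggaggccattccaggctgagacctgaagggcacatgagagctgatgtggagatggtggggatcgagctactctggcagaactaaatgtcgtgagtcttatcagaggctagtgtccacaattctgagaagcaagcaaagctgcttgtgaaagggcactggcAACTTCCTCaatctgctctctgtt
Csf2ra held 2 overlapping PU.1 matches, which began at positions -14 and -8 from the start site, and Csf3r held 1, which began at -86. Csf2rb2 held 2 on its other strand, at -168 and 28, and the second overlapped its single AAGTT match at 26. Csf1 held neither motif. GAGGAAG was found in 13.6% and AAGTT in 39.3% of 32851 promoters of this length, and TGANTCA, the AP-1 site that was searched too, in 7.81%, with no match in these 4. The promoters of Csf2 and Flt3 and of the related genes Il3ra and Flt3l were searched as well. Only Flt3 and Il3ra held a match, 1 AAGTT each. The promoters of Csf1r, Il34, Csf2rb and Csf3 are not in the table used here.

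Il34 encodes interleukin-34, the second ligand of Csf1r, known for maintaining Langerhans cells and microglia. The normalised log2 signal of its brighter probe was -0.13 in LysM-St18flox osteoclasts and -0.48 in wild-type osteoclasts, against -5.54 in LysM-St18flox macrophages and -4.77 in wild-type macrophages. Both osteoclast cultures thus lay far above both macrophage cultures. The signal in LysM-St18flox macrophages was not well above background. LysM-St18flox osteoclasts read 42.4-fold higher than LysM-St18flox macrophages (5.41, log2), and 75 genes, 0.482% of those measured, were as high or higher. That value used the dim macrophage signal as it stood, so it is the observed difference and no firm minimum. Wild-type osteoclasts were 19.5-fold higher than wild-type macrophages (4.29, log2, with a scanner error SD of 0.30), where 58 genes, 0.394%, were as high or higher. So Il34 stood among the most strongly raised genes of both comparisons, by size.

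The second Il34 probe gave the same direction. It read -2.45 in LysM-St18flox osteoclasts and -2.55 in wild-type osteoclasts, against -7.78 in LysM-St18flox macrophages and -7.55 in wild-type macrophages, neither of these last 2 being well above background. The bounds were at least 8.64-fold in LysM-St18flox and at least 6.82-fold in the wild type. With a background model (normexp) applied to the median signal, the brighter probe's differences were 3.64 and 2.62 (log2) in the same order. The main processing gave 5.41 and 4.29. Both stayed above 2-fold, but the size of the difference depends on how background is handled. Il34 is not among the probes of the authors' table of log2 values.

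Between genotypes, Il34 did not reach 2-fold in osteoclasts, at 0.35 (log2) with the brighter probe and 0.10 with the other, LysM-St18flox minus wild type. In macrophages the brighter probe read 1.71-fold lower in LysM-St18flox than in the wild type, with the dim LysM-St18flox signal taken as it stood. This value is no firm minimum, and it rests on a wild-type signal of -4.77. That signal is close to its array's detection limit, -5.32, the lowest signal well above background. The stroma and osteoblast markers, genes of cells that can make Il34 and Csf1 in bone, were mostly not well above background. Of 10, 4 were well above background in LysM-St18flox osteoclasts and 3 in the wild-type ones, and likewise 4 in LysM-St18flox macrophages and 3 in the wild-type ones. Pdgfrb, Lum, Alpl, Sp7, Cxcl12 and Col3a1 were not well above background on any array. Dcn, the gene of the stromal proteoglycan decorin, was so on all 4. It was 3.14-fold higher in osteoclasts than macrophages of LysM-St18flox and 2.40-fold higher in those of the wild type. Col1a2 and Runx2 were well above background on all 4 as well, and did not follow Dcn. Their osteoclast minus macrophage differences were -0.10 and -0.68 (log2) in LysM-St18flox and 0.38 and -0.13 in the wild type. The summed signal of the list, in units of the array's 75th percentile, was 0.313 and 0.375 in LysM-St18flox and wild-type osteoclasts, against 0.266 and 0.265 in the macrophages of the same genotypes. The part of such cells in the Il34 and Csf1 values was not tested.

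Of the other surface partners named for interleukin-34, Sdc1, the proteoglycan syndecan-1, was also higher in osteoclasts. Its signal was 3.53 in LysM-St18flox osteoclasts and -1.07 in LysM-St18flox macrophages, 24.3-fold apart, and 3.47 in wild-type osteoclasts and 0.12 in wild-type macrophages, 10.2-fold apart. Sdc1 was 2.28-fold lower in LysM-St18flox macrophages than in wild-type macrophages. Ptprz1, a receptor tyrosine phosphatase and the other partner on this list of 2, was not called in any comparison.

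Csf1 encodes M-CSF, the factor that was added to all of these cultures. Its brightest probe read -3.18 in LysM-St18flox osteoclasts and -3.23 in wild-type osteoclasts, against -1.76 in LysM-St18flox macrophages and -2.94 in wild-type macrophages. The LysM-St18flox macrophage culture stood above the 3 others, which lay within 0.29 of each other. LysM-St18flox macrophages were 2.26-fold higher than wild-type macrophages (1.18, log2, scanner error SD 0.21), and 334 genes, 2.20% of those measured, were as high or higher. LysM-St18flox osteoclasts were 2.67-fold lower than LysM-St18flox macrophages (-1.41), whereas wild-type osteoclasts were 1.22-fold lower than wild-type macrophages (-0.29). The osteoclasts of the genotypes differed by 0.05, a difference whose sign turned with the background model (-0.10).

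The other Csf1 probes were well above background in LysM-St18flox macrophages alone, at -4.68 and -4.86. Their signals elsewhere, -6.69 and -7.31 in LysM-St18flox osteoclasts, -7.18 and -6.23 in wild-type osteoclasts and -6.22 and -6.46 in wild-type macrophages, were not. They put LysM-St18flox macrophages at least 1.56-fold and at least 1.38-fold above wild-type macrophages, bounds in the direction of the brightest probe that do not reach 2-fold. With the background model the difference of the brightest probe between macrophages was 0.69, so the call was lost, and under median centring, quantile normalization and the authors' table it was 1.19 to 1.21. The stroma list summed to 0.266 in LysM-St18flox macrophages and 0.265 in wild-type macrophages.

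The RANKL response of Csf1 was 1.13 (log2) lower in LysM-St18flox than in the wild type. Of 13667 genes well above background on all 4 arrays, 7.90% had responses at least 2-fold apart, and 3.48% had a gap as far below 0 as that of Csf1. Csf1 was the only 1 of the 5 such members past 2-fold, and this difference of differences was not tested. It was under 2-fold with median centring (-0.89), quantile normalization (-0.94), the authors' deposited table (-0.92), the background model (-0.79) and the median over probes (-0.53). The last value compares unlike probes. It sets a bound of the second probe in LysM-St18flox, -0.82, against the brightest probe in the wild type, -0.29. The genes whose 4 centred values lay closest to those of Csf1, over 4 arrays, were Tmcc1, Csprs and Map3k8, with root mean square distances of 0.035, 0.051 and 0.058 (log2). Of 13666 genes compared, 80 lay within 0.2 of Csf1, so the pattern is shared by many. Map3k8, a kinase of inflammatory signalling, read -0.95 in LysM-St18flox osteoclasts and -1.09 in wild-type osteoclasts, against 0.45 in LysM-St18flox macrophages and -0.64 in wild-type macrophages.

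Csf1r, the receptor of M-CSF and interleukin-34, was strongly expressed in all 4 cultures. Its brighter probe read 7.71 in LysM-St18flox osteoclasts and 7.58 in wild-type osteoclasts, against 8.09 in LysM-St18flox macrophages and 8.49 in wild-type macrophages. Both macrophage cultures lay above both osteoclast cultures. Wild-type osteoclasts were 1.88-fold lower than wild-type macrophages (-0.91, 95% interval from the scanner error -1.31 to -0.51). LysM-St18flox osteoclasts were 1.31-fold lower than LysM-St18flox macrophages (-0.39, -0.79 to 0.01). The order by level was wild-type macrophages, LysM-St18flox macrophages, LysM-St18flox osteoclasts and wild-type osteoclasts, and the scanner error interval of each step between neighbours includes 0.

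The second Csf1r probe gave -0.67 for LysM-St18flox osteoclasts minus macrophages and -1.04 for the wild type, so that its wild-type value passed 2-fold by a small margin. Between genotypes the probes disagreed. The second read 1.21 in LysM-St18flox osteoclasts and 2.18 in wild-type osteoclasts, beside 1.88 in LysM-St18flox macrophages and 3.22 in wild-type macrophages. LysM-St18flox was therefore 2.53-fold lower in macrophages (-1.34) and 1.95-fold lower in osteoclasts (-0.96) by this probe, and 197 genes, 1.30% of those measured, were as low in macrophages. By the brighter probe, LysM-St18flox minus wild type was -0.40 in macrophages and 0.13 in osteoclasts. The macrophage value turned to 0.16 under quantile normalization and 0.15 in the authors' table, while that of the second probe stayed between -1.34 and -1.27. The sources used here do not place the probes in the transcript, and the genotype difference of Csf1r has no settled size or direction in these data. Macrophage markers summed to 333 and 330 times the 75th percentile in LysM-St18flox and wild-type osteoclasts, against 590 and 526 in the macrophages of the same genotypes. Cd68, the brightest of them on every array, differed by only -0.06 and -0.45 (log2). Of the 8 markers, 6 were at least 2-fold lower in LysM-St18flox osteoclasts and 3 in wild-type ones, against 12.2% and 7.32% of all measured genes. Their median differences were -1.79 and -0.94. The part of cell makeup in the Csf1r values was not tested.

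Csf2ra, the alpha chain of the GM-CSF receptor, varied least among the bright members. It read 6.42 in LysM-St18flox osteoclasts and 6.44 in wild-type osteoclasts, against 6.20 in LysM-St18flox macrophages and 6.59 in wild-type macrophages. Osteoclasts minus macrophages was 0.22 in LysM-St18flox and -0.15 for the wild type, and LysM-St18flox minus wild type was -0.39 in macrophages and -0.02 in osteoclasts. The scanner error intervals of all 4 differences include 0. The sign of the LysM-St18flox response turned to -0.06 under quantile normalization.

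Csf2rb, the signalling beta chain shared by the receptors of GM-CSF, interleukin-3 and interleukin-5, was somewhat higher in osteoclasts. Its brightest probe read 5.20 in LysM-St18flox osteoclasts and 5.26 in wild-type osteoclasts, against 4.62 in LysM-St18flox macrophages and 4.77 in wild-type macrophages. Both osteoclast cultures lay above both macrophage cultures, by 1.49-fold in LysM-St18flox and 1.40-fold in the wild type, under the 2-fold rule. The second probe gave 0.59 and 0.51 (log2) in the same order, and the dimmest 0.08 and 0.41. Between genotypes the 2 dimmer probes were lower in LysM-St18flox, at -0.66 and -0.63 in macrophages and -0.58 and -0.96 in osteoclasts, while the brightest gave -0.14 and -0.05. The last of these values turned to 0.20 with each array centred on its median.

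Csf2rb2 encodes a beta chain found in mice that serves interleukin-3. It read 5.11 in LysM-St18flox osteoclasts and 5.37 in wild-type osteoclasts, against 4.62 in LysM-St18flox macrophages and 4.99 in wild-type macrophages. Its osteoclast minus macrophage differences, 0.49 and 0.38, were close to those of the brightest Csf2rb probe. The 2 genes are near-identical copies, so their probes may read each other's transcripts and the values are uncertain as separate measurements.

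Of the 5 relatives of the beta chain, Csf2rb2, Il3ra and Il5ra were measured and the ligands Il3 and Il5 were not well above background on any array. Il3ra, the alpha chain for interleukin-3, read 3.21 in LysM-St18flox osteoclasts and 4.47 in LysM-St18flox macrophages, and 3.32 in wild-type osteoclasts and 3.87 in wild-type macrophages. In LysM-St18flox, osteoclasts were 2.39-fold lower than macrophages, and its second probe gave -1.37 (log2) against -1.26. The wild-type difference, -0.56, was under 2-fold with either probe. Il3ra was the 1 gene of this list to be called, in that 1 comparison.

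Csf3r, the receptor of G-CSF, was bright in all 4 cultures although none was grown for neutrophils. It read 6.67 in LysM-St18flox osteoclasts and 7.30 in wild-type osteoclasts, beside 6.75 in LysM-St18flox macrophages and 7.46 in wild-type macrophages. Both LysM-St18flox cultures lay below both wild-type cultures, by 1.63-fold in macrophages (-0.71, 95% scanner error interval -1.11 to -0.31) and 1.55-fold in osteoclasts (-0.63, -1.03 to -0.23). Neither reached 2-fold, and 7.30% and 10.6% of measured genes were as low. Under the 4 other ways of scaling or background correction the macrophage value ran up to -0.37 and the osteoclast value up to -0.38. Osteoclasts and macrophages of a genotype were close, at -0.08 and -0.16, with signs that turned under some scalings.

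Markers of neutrophils, the cells known for Csf3r, were present in all 4 cultures. All 9 named markers were well above background in both osteoclast cultures and 8 of 9, all but Cxcr2, in both macrophage cultures. Their summed signal was 9.86 and 14.3 times the 75th percentile in LysM-St18flox and wild-type osteoclasts, against 40.4 and 33.1 in the macrophages of the same genotypes. The macrophage sums come mostly from Mmp8. It read 4.66 and 4.33 (log2) in LysM-St18flox and wild-type macrophages, against 1.20 and 2.25 in the osteoclasts of the same genotypes. In LysM-St18flox 5 of 9 were at least 2-fold lower in osteoclasts than in macrophages, against 12.2% of all measured genes, with a median of -1.16. For the wild type 1 of 9 was lower, Mmp8, against 7.32% of genes, and 1 higher, Cxcr2, against 5.7%. The wild-type median was -0.34. Between LysM-St18flox and wild-type macrophages, where Csf3r was at -0.71, 0 of the 8 measured neutrophil markers were called and their median difference was 0.36. Between the osteoclast cultures of the genotypes, where Csf3r was at -0.63, 1 of 9 was called, Mmp8, the neutrophil collagenase, as lower, 8 of 9 were below 0 and the median was -0.43. Over all measured genes 6.27% were called between the macrophages and 7.75% between the osteoclasts of the genotypes. The part of neutrophils in the Csf3r values was not tested.

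Csf2 and Csf3, the genes of GM-CSF and G-CSF, were not well above background on any array. Csf2 read -7.77 and -7.13 in LysM-St18flox and wild-type osteoclasts, and -7.82 and -7.56 in LysM-St18flox and wild-type macrophages. Csf3 read -7.81 and -7.20 in the osteoclasts and -7.87 and -7.64 in the macrophages of the same genotypes. All 8 values lay under this detection limit of their array, which ran from -5.56 to -4.89. Their transcripts were not detectable at this sensitivity, and their differences are not reported.

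Flt3 was near the detection limit. It exceeded background in LysM-St18flox osteoclasts, at -4.34, and LysM-St18flox macrophages, at -5.22, but not in wild-type osteoclasts, at -5.07, or wild-type macrophages, at -5.78. The wild-type osteoclast value thus lay above that of LysM-St18flox macrophages. Both LysM-St18flox arrays were brighter, with 75th percentiles of 1062 and 1159 against 770 and 636, and dim probes are read less well on dimmer arrays. That limit also bears on the marker counts below. LysM-St18flox osteoclasts were 1.84-fold above LysM-St18flox macrophages (0.88, scanner error SD 0.34), which became 1.05 under median centring and quantile normalization and 0.41 with the background model. The bounds between genotypes, at least 1.46-fold higher in osteoclasts and at least 1.07-fold in macrophages, were under 2-fold, with 0.10 (log2) in osteoclasts under the background model, and its wild-type response could not be measured. Blood progenitor markers were well above background for 7 of 8 genes in LysM-St18flox osteoclasts and 5 in wild-type osteoclasts, and for 5 in LysM-St18flox and 4 in wild-type macrophages. Of 8 dendritic cell markers, 6 were well above background in LysM-St18flox osteoclasts and 4 in the wild-type ones, and 6 in LysM-St18flox macrophages and 5 in the wild-type ones. The part of either list in the Flt3 values was not tested.

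Flt3l, the ligand of Flt3, was well above background everywhere. It read -1.07 in LysM-St18flox osteoclasts and 0.82 in LysM-St18flox macrophages, 3.72-fold apart, and -0.64 in wild-type osteoclasts and 0.18 in wild-type macrophages, 1.76-fold apart. Osteoclasts were thus lower in both genotypes, and LysM-St18flox macrophages were the highest of the 4 cultures. The second probe gave 2.24-fold and 1.64-fold. The LysM-St18flox response was 1.08 (log2) below the wild-type response, and 3.94% of genes had a gap as low or lower, whereas the second probe gave a gap of -0.45, as low in 16.2% of genes. Among the related kinases and ligands, Kit was well above background only in LysM-St18flox osteoclasts, at -4.70, Pdgfra and Pdgfrb nowhere, and Kitl, the ligand of Kit, was lower in osteoclasts than in macrophages, 1.72-fold in LysM-St18flox and 2.77-fold in the wild type.

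**Figure D2:**
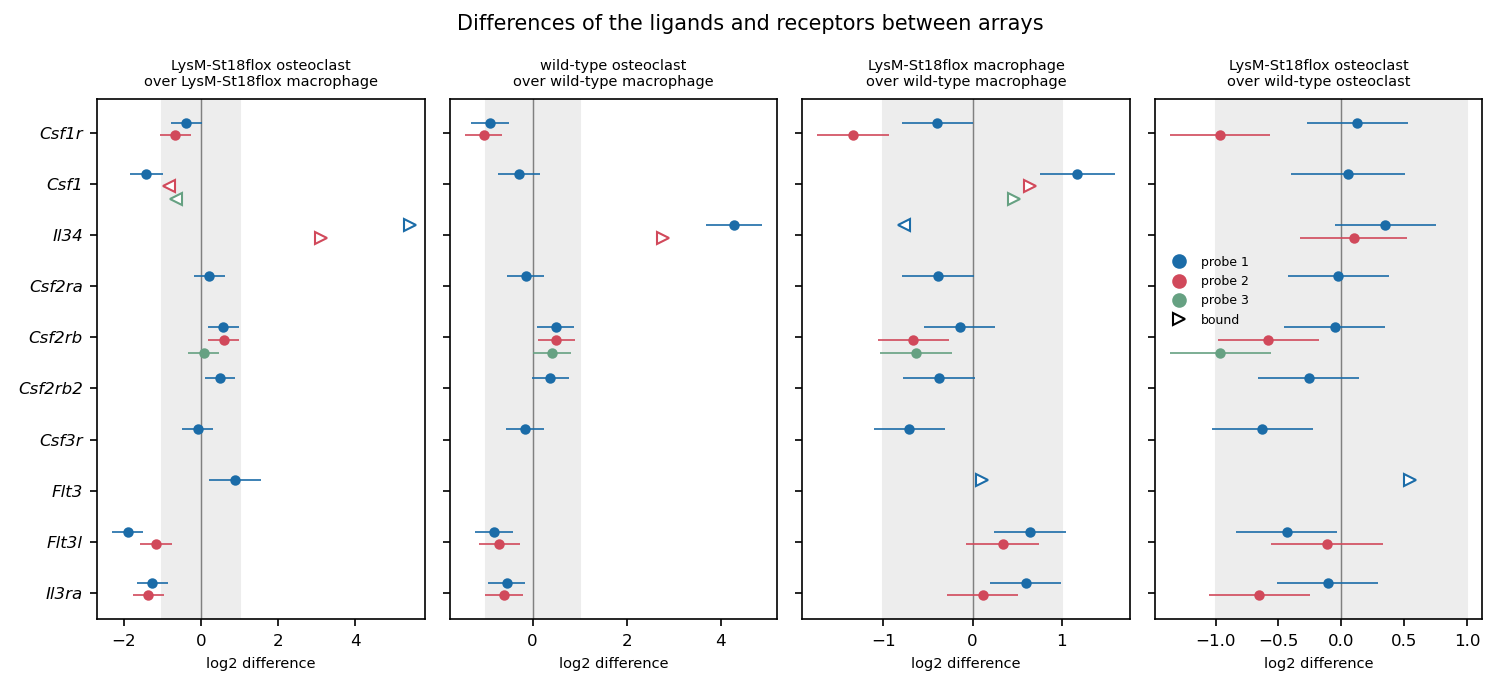
Log2 differences (x axis, a separate scale in each panel) of the ligands and receptors (y axis) in the 4 comparisons, 1 panel each and 1 colour a probe. Points carry 95% intervals from the scanner's error estimate, which leave out the spread between cultures, open triangles are bounds that point away from 0, and the grey band is under 2-fold. Il34 lies to the right in both osteoclast over macrophage panels, at 5.41 and 4.29 with its brighter probe.

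**Figure D3:**
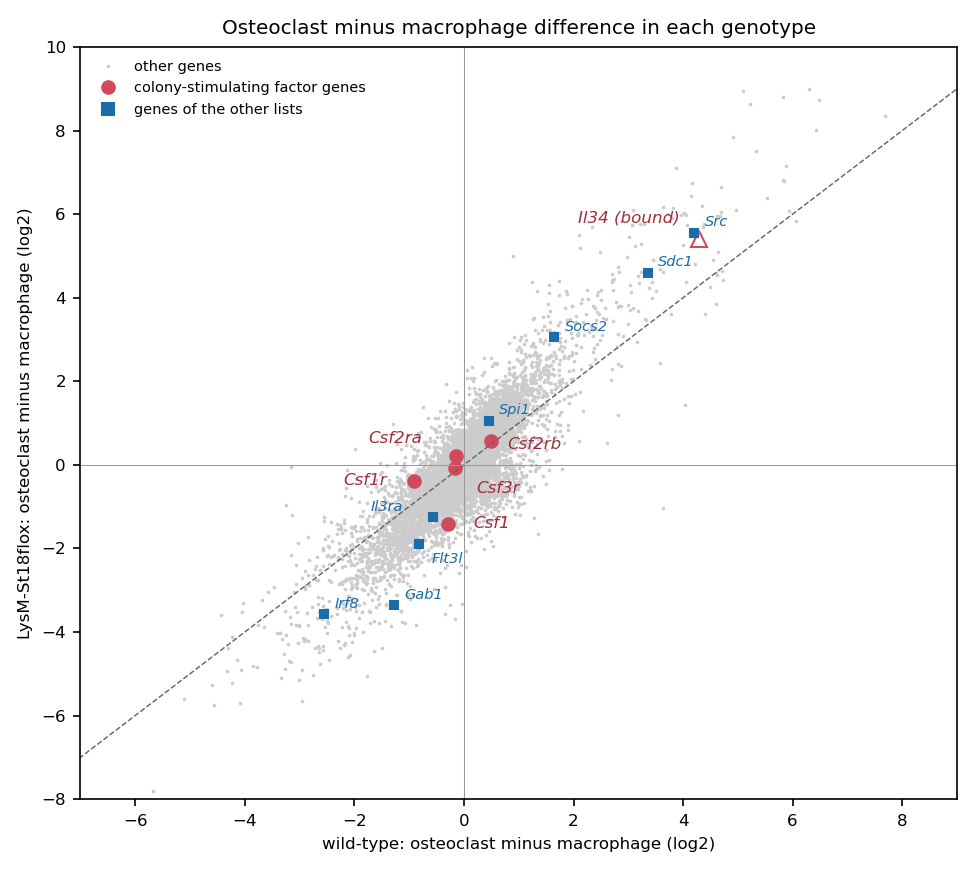
Osteoclast minus macrophage difference (log2) in the wild type (x axis) and in LysM-St18flox (y axis) for genes well above background on all 4 arrays, with Il34 added as a bound. The dashed line is equality. Red points are colony-stimulating factor genes, blue squares genes of the other lists, and Csf1 lies below the line at -0.29 and -1.41.

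Genes around the receptors were read from lists chosen for their known roles. Their counts stand beside the shares called over all measured genes, which are 23.1% for osteoclasts against macrophages of LysM-St18flox, 13% for those of the wild type, 6.27% between macrophages and 7.75% between osteoclasts of the genotypes. Nothing particular to a list is read from them. Of 22 adaptors, kinases and lipid enzymes next to Csf1r, LysM-St18flox osteoclasts had 3 higher and 3 lower than macrophages of the genotype, with a median of -0.20 against -0.02 over all measured genes. In the wild type 2 were higher and 1 lower, with a median of -0.21. Src, the tyrosine kinase needed for bone resorption, was 47.1-fold higher in LysM-St18flox osteoclasts and 18.4-fold higher in wild-type ones, against their macrophages, and Fgr, a Src family kinase, 4.16-fold and 3.99-fold. Gab1, a docking adaptor of growth factor receptors, was 10.2-fold and 2.41-fold lower, with the wild-type value at -0.63 (log2) and no longer called under the background model. Tyrobp, the adaptor DAP12 that works beside Csf1r and the RANK pathway, was under 2-fold in all 4 comparisons.

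Between genotypes, Gab1 was the 1 gene of the 22 called in macrophages, at -1.10 in LysM-St18flox macrophages against -2.80 in wild-type macrophages, 3.26-fold higher. In osteoclasts 2 of the 22 were called. Src was at 1.92 in LysM-St18flox osteoclasts against 0.63 in wild-type osteoclasts, 2.46-fold higher, and Rac2, a small GTPase of the actin cytoskeleton, was 2.11-fold higher. The osteoclast markers, of which 6 of 8 were called in that comparison, had a median of 1.47.

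The 9 genes that switch off, degrade or shed Csf1r, such as the ubiquitin ligase Cbl and the sheddase Adam17, were measured in all comparisons and 0 were called in any. Their medians ran from -0.23, in wild-type osteoclasts against macrophages, to 0.15, in LysM-St18flox against wild-type macrophages.

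The transcription factors that act on Csf1r and the other myeloid receptors were called more often as lower than as higher in osteoclasts. Of 14 measured, 2 were higher and 6 lower in LysM-St18flox osteoclasts, with a median of -0.75, and 1 was higher and 6 lower in wild-type osteoclasts, with a median of -0.45, each against macrophages of its genotype. Maf was 19.4-fold and 9.31-fold lower, Fli1 5.29-fold and 2.44-fold, and Cebpa 4.15-fold and 2.41-fold, in LysM-St18flox and the wild type. Irf8, which restrains osteoclast formation, was at -3.58 and -2.55 (log2) in the same comparisons. Spi1, the gene of PU.1, was 2.08-fold higher in osteoclasts than macrophages of LysM-St18flox and 1.37-fold higher in those of the wild type. The receptors whose promoters carried the PU.1 core above, Csf2ra, Csf3r and Csf2rb2, were under 2-fold in both. So was Csf2rb, whose promoter could not be searched, and 13.6% of all promoters carry this core. The part of PU.1 in the receptor values was not tested. Between genotypes 0 of 14 were called in macrophages, and in osteoclasts 3 were lower in LysM-St18flox, among them Myb (2.11-fold) and Fli1 (2.03-fold), of which Myb was past 2-fold under none of the 4 other scalings or background corrections and Fli1 under 2.

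The growth genes downstream of M-CSF did not move one way. Of 10, 4 were higher and 3 lower in LysM-St18flox osteoclasts, and 2 higher and 4 lower in wild-type osteoclasts, each against macrophages of its genotype. Fosl2, an AP-1 subunit, was 15.4-fold and 5.66-fold higher in LysM-St18flox and wild-type osteoclasts, and Myc 4.54-fold and 2.42-fold. The cyclin gene Ccnd2 was 14.3-fold and 13.5-fold lower, and Plau, the urokinase gene, 4.11-fold and 4.51-fold. Tnfrsf11a, the gene of the RANKL receptor RANK, which M-CSF is known to induce, was 2.08-fold and 1.37-fold higher, with the LysM-St18flox value at 0.90 (log2) under quantile normalization. Between macrophages of the genotypes 2 of the 10 were called, both lower in LysM-St18flox, with Myc at 0.79 against 1.95 in the wild type and Odc1, the first enzyme of polyamine synthesis, at 1.72 against 2.97. The median of the list there was -0.59, against -0.02 over all measured genes. In osteoclasts the 1 gene called was Fosl2, 2.18-fold higher in LysM-St18flox.

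The JAK-STAT genes through which the receptors of GM-CSF and G-CSF signal gave 1 higher and 4 lower of 14 in LysM-St18flox osteoclasts and 2 higher and 1 lower in wild-type osteoclasts. Socs2, an inhibitor of cytokine receptor signalling, was 8.29-fold and 3.14-fold higher, the wild-type value being 0.67 (log2) and not called under the background model, and Bcl2l1, the survival gene of BCL-XL, 4.37-fold and 4.70-fold lower. In LysM-St18flox macrophages 2 of 14 were called against wild-type macrophages, both higher. Pim1, a survival kinase, was at 3.17 against 2.11, and Cish, an inhibitor of the pathway, at -2.41 against -3.69, although with the background model the Cish difference was 0.56 and its call was lost. Socs2 was the 1 gene called in osteoclasts, 2.74-fold higher in LysM-St18flox than in the wild type.

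**Figure D4:**
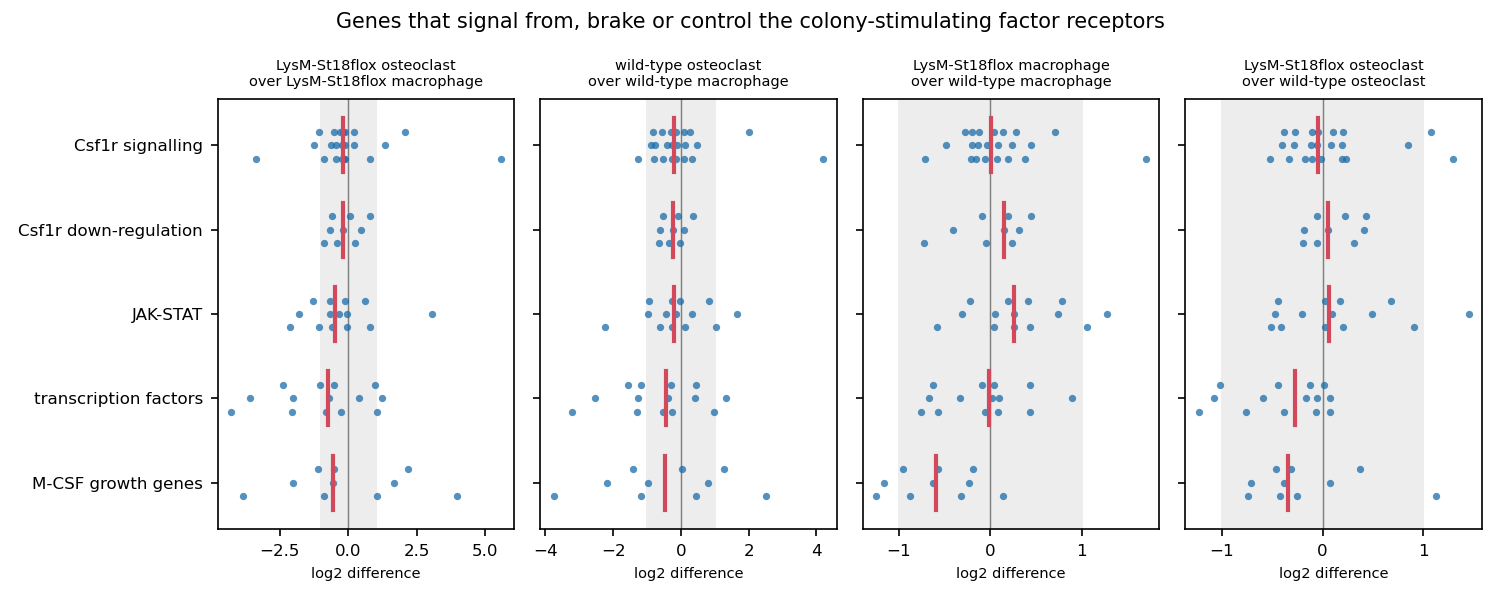
Log2 differences (x axis, a separate scale in each panel) of the measured genes of 5 lists (y axis) in the 4 comparisons. Each point is a gene, red bars are list medians and the grey band is under 2-fold. The growth genes downstream of M-CSF have a median of -0.59 between LysM-St18flox and wild-type macrophages, and the genes that down-regulate Csf1r stay inside the band.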

How the data were processed

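Total RNA of 4 cultures was measured, 1 array each, and samples were grouped by the labels' cell type and genotype. Cells grew in medium with 10% serum, and 100 ng of RNA was labelled with Cy3, per the labels' protocols. The submitters' processing notes name Agilent Feature Extraction 11.0.1.1. For every spot the deposited scanner files hold an intensity that was corrected for background, per the file headers, and other deposited values, which are flags for spots well above background, saturated or outlying. The authors deposited log2 values of 30909 probes in a further table, with a median of 9.39 in each column. The sources used here do not say how it was made, and its columns correlated with the arrays at 0.9995 or more.

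From these files log2 of the processed intensity was averaged over the spots of a probe, after leaving out 80 to 126 outlying spots an array, and the array's 75th percentile over probes was subtracted. That percentile was 1062 and 770 in LysM-St18flox and wild-type osteoclasts and 1159 and 636 in the macrophages, so dim probes are read less well on the dimmer arrays. Repeat spots of a probe varied by a median SD of 0.031 to 0.042 (log2) within an array. Of 56605 probes, 58.3% were named through their transcript accession and the RefSeq gene table of GRCm38.p6, used for names. A gene was given by each probe, and in counts by the probe brightest on average. A bound used the dim signal itself or, if higher, its array's lowest signal well above background. In the first case, which holds for the bounds of the brighter Il34 probe, it is the observed difference and no firm minimum.

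The members and gene lists were chosen with earlier results of these data known. All members are named, and of the 8 other gene lists the genes past 2-fold in a comparison, with those of largest difference first, plus Csf2rb2, Flt3l, Kit, Spi1, Irf8, Tyrobp and Tnfrsf11a. The 8 marker lists covered osteoclasts, macrophages, neutrophils, dendritic cells, stroma, blood progenitors, mast cells and lymphocytes. Counted genes of a list that are not named are not reported here. Neither a p-value nor a chance test was computed. The calling code was checked on simulated arrays with known differences. The alternatives were median centring, quantile normalization, the authors' table, a normexp background model with offset 50 (limma 3.58.1, R 4.3.3), no filter on dim probes, the median over probes, the second brightest probe, and size rules of 1.5-fold and 3-fold. The planned normexp used the mean signal, which is not among the columns used here, so the median signal was taken, a choice made after seeing the data. Other steps used Python 3.11.15 with pandas 2.3.3.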

Additional observations from a re-analysis of the deposited data

Results flagged for a closer look

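Csf1r, by its brighter probe, had opposite genotype differences in the cell types, LysM-St18flox minus wild type. The value was -0.40 (log2) in macrophages and 0.13 in osteoclasts. The gap between them was not tested, the macrophage value is 0.16 under quantile normalization, and the second probe was negative in both cell types.

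Il34 gave -0.77 for LysM-St18flox minus wild-type macrophages, 1.71-fold lower, and 0.35 for LysM-St18flox minus wild-type osteoclasts. This gap was not tested, and the macrophage value rests on a dim signal and is no firm minimum.

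Csf2ra had opposite RANKL responses, with osteoclasts minus macrophages at 0.22 in LysM-St18flox and -0.15 for the wild type. This gap was not tested, and the LysM-St18flox value is -0.06 under quantile normalization.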

How the results depend on the processing

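Of 199 recomputed differences of single members, 178 stayed within the scanner error of the reported value, 21 moved beyond it and 0 called ones changed sign. Many could hardly have moved. Removing the filter on dim probes leaves measured values unchanged, and median centring adds 1 constant of at most 0.25 to a comparison. Under each of these 2 settings all 32 values stayed. The median over probes likewise leaves genes with 1 probe unchanged. Il34 was past 2-fold in both osteoclast over macrophage comparisons under every setting that held its probe. The counts of called members moved as follows. Between LysM-St18flox osteoclasts and macrophages the count of 2 became 1 in the authors' table, with the median over probes, with the second brightest probe and with the 3-fold rule, and 3 with median centring, quantile normalization and the 1.5-fold rule. Between wild-type osteoclasts and macrophages the count of 1 became 0 in the authors' table, which lacks Il34, and 2 with normexp, with the second brightest probe and with the 1.5-fold rule. Between LysM-St18flox and wild-type macrophages the count of 1 became 0 with normexp, the median over probes and the 3-fold rule, and 3 with the 1.5-fold rule. Between LysM-St18flox and wild-type osteoclasts the count of 0 became 1 with the 1.5-fold rule.

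Over all genes, LysM-St18flox over wild-type macrophages gave 951 called genes, 556 with normexp and 2093 without the filter on dim probes. LysM-St18flox over wild-type osteoclasts gave 1132, 537 with normexp, 695 in the authors' table and 2330 without the filter, and wild-type osteoclasts over macrophages 1918, and 2985 without it. The split for LysM-St18flox over wild-type osteoclasts was 556 higher and 576 lower, 995 and 316 with median centring, 646 and 393 with quantile normalization, 432 and 263 in the authors' table and 318 and 219 with normexp. For LysM-St18flox osteoclasts over macrophages it was 1700 and 1905, and 2202 and 1522 with median centring. The causes were not tested.

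No paired analysis was possible because each group has 1 array. With 1 array a group, culture, mouse, array and group cannot be told apart, and Csf2, Csf3, Flt3 and 2 Csf1 probes are limited by signal over background.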
